A study of Mus musculus with 6 samples.

Results

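The oligoadenylate synthetase (OAS) family was followed in primary mouse hepatocytes depleted of retinol saturase (RetSat), through the 7 genes Oas1a, Oas1b, Oas1c, Oas2, Oas3, Oasl1 and Oasl2. They were taken by symbol. A probe set counted for a gene where the platform annotation named that gene alone, and the brightest was used where a gene had several. All 7 were found among the 19938 genes tested.

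The hepatocytes came from a male wild-type C57BL/6J mouse, aged 10 weeks by the series record although the general methods of the study give a younger age, and were cultured in 25 mM glucose. Depleted cells (siRetSat) received 1 nmol of siRNA against RetSat overnight, and reference cells (siControl) the same amount of control siRNA, both with Lipofectamine 2000. The transfection mix was removed in the morning, and 48 h later total RNA was isolated from 3 independent transfections of each, and read on Affymetrix Mouse Gene 1.0 ST arrays. Both groups therefore carried a transfected siRNA, the samples analysed here hold neither untransfected cells nor a second siRNA against RetSat, and p-values measure the spread between transfections of 1 animal's cells. Loss of RetSat and any other effect of this siRNA duplex cannot be told apart.

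The values are normalized log2 intensities, on which a difference of 1 is a doubling of signal. They ran between 1.46 and 13.7 over 35556 probe sets, array medians lay between 4.29 and 4.50, and arrays of a group correlated at 0.992 to 0.997 across genes, which are not independent replicates. Retsat itself had log2 intensities of 4.62, 4.83 and 4.81 in siRetSat against 6.80, 7.04 and 7.01 in siControl, a log2 difference of -2.20 (limma, adjusted p = 0.000112). The hepatocyte transcript Alb lay at 12.99 to 13.10 in siRetSat and 12.90 to 13.06 in siControl. It is 1 of 8 hepatocyte markers measured, whose median log2 fold change was -0.23. The number of arrays limits the precision of all values.

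OAS enzymes bind double-stranded RNA, a product of viral replication, and then join ATP molecules into short chains of adenylate with an unusual linkage, called 2-5A. These chains act as a second messenger of the antiviral response, which limits viral replication and protein synthesis. OAS genes are classical interferon-induced genes: type I interferon activates the factor ISGF3, which includes Stat2 and Irf9 and binds interferon-stimulated response elements in their promoters. In mice the Oas1 gene has been duplicated many times, and a pair of OAS-like genes, Oasl1 and Oasl2, carry ubiquitin-like domains in addition.

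All OAS genes of RefSeq's GRCm38.p6 annotation lie on chromosome 5. Oasl2 and Oasl1 stand together, with no protein-coding gene between them. The others form a second group in the order Oas2, Oas3, Oas1e, Oas1c, Oas1b, Oas1f, Oas1h, Oas1g, Oas1a and Oas1d, again with no protein-coding gene among them. Between both groups stand 60 protein-coding genes.

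Promoter windows of RefSeq (GRCm38.p6, from 250 bases before to 50 bases after the start of a gene) were searched on both strands for the core of the response element, written here as GAAA half-sites on 1 strand spaced by any 2 bases. Windows were at hand for 8 OAS genes, among them 5 of the 7 followed here, all but Oas1b and Oas2. The core was present in the windows of Oas1a, Oas3 and Oas1c and of the Oas1a paralog Oas1g, and in 1131 of all 32851 windows (3.44%). It is shown because these letters are the known contact of ISGF3, in capitals, with the rest in lower case. The Oas1a window is chr5:120907476-120907775 on the minus strand, and the Oas3 window chr5:120777610-120777909 on the minus strand.
Oas1a: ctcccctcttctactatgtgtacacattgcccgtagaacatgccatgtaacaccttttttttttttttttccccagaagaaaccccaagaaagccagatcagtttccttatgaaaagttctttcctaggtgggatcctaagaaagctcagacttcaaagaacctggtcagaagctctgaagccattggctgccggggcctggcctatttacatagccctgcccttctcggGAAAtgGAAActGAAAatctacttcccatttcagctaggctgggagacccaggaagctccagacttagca
Oas3: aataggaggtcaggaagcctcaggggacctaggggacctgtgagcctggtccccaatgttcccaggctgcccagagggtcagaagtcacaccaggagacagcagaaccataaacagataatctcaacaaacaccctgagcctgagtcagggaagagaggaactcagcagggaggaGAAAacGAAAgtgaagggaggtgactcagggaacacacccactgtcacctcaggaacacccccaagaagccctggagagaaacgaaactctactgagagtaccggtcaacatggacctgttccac

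In Oas1a the match held 3 half-sites in 16 bases, at positions -20 to -5 from the start. The same 16 bases stood in the Oas1g window, at positions -18 to -3, and both windows were 85.3% identical over their aligned length. They stood again in the Oas1c window, on the strand opposite to Oas1c. There, read on the plus strand, the match ended 7 bases from the boundary of the neighbouring gene Oas1b, which lies inside that window. To set these copies side by side, 60 bases around each are given, for Oas1g chr5:120887594-120887653 on the minus strand and for the Oas1c and Oas1b interval chr5:120812587-120812646 on the plus strand.
Oas1g: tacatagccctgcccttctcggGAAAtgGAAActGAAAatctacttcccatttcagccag
Oas1c and Oas1b: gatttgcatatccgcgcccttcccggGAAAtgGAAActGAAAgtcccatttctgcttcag

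In Oas3 the match held 1 pair, at positions -75 to -66. The windows of Oasl1 and Oasl2 held no pair at this spacing, although each held 4 single GAAA half-sites, against a median of 3 over all windows. The core of the gamma-activated site, TTCNNNGAA, an element of interferon-gamma responses, was found among the 8 OAS windows only in Oas1a, at positions -98 to -90, and in 8.30% of all windows. A match is a description of the letters, and no binding was measured.

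**Figure D1:**
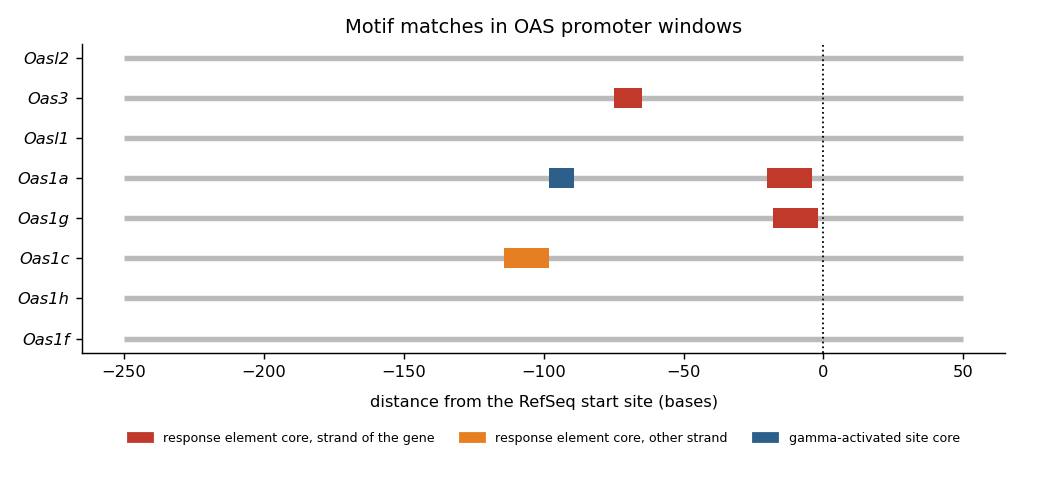
Promoter windows of 8 OAS genes, each as a grey line of 300 bases, with the distance from the RefSeq start site in bases on the x axis. Coloured blocks mark matches to the response element core on the strand of the gene (red) or the other strand (orange) and to the gamma-activated site core (blue), and the block nearest a start is that of Oas1g, at positions -18 to -3.

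Expression of 4 of the 7 OAS genes rose in RetSat-depleted hepatocytes, namely Oasl2, Oas3, Oasl1 and Oas1a, by 3.74-, 2.82-, 2.26- and 2.11-fold. No OAS gene fell. Oas2, Oas1c and Oas1b did not pass the test, and their fold changes were 1.35, 1.24 and 1.23. Calls are at an adjusted p under 0.05 from limma over all 19938 genes, of which 1.91% were higher and 1.66% lower in siRetSat. The median log2 fold change was 1.08 over the 7 OAS genes and 0.00 over all genes. In 4 of the 7 all siRetSat values exceeded all siControl values, which held for 9.33% of all genes.

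Oasl2 encodes an OAS-like protein that in the mouse keeps synthetase activity. It had log2 intensities of 9.32, 9.24 and 9.44 in siRetSat against 7.44, 7.38 and 7.47 in siControl. The siRetSat arrays lay well clear of the siControl arrays, and the spread within each group was small. The means were 9.33 ± 0.10 in siRetSat and 7.43 ± 0.05 in siControl (SD, n = 3 each), a log2 difference of 1.90 with a standard error of 0.0898 (limma, adjusted p = 0.000112). By size of log2 fold change Oasl2 ranked 8 of 19938 genes.

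Oasl1 encodes the sister protein, which has lost synthetase activity and in mice is known to restrain translation of Irf7. Its log2 intensities were 9.83, 9.66 and 9.80 in siRetSat against 8.71, 8.61 and 8.44 in siControl. The groups did not overlap. The means were 9.76 ± 0.09 in siRetSat and 8.59 ± 0.14 in siControl (SD, n = 3 each), a log2 difference of 1.18 with a standard error of 0.102 (limma, adjusted p = 0.00128). The gene thus rose less than its neighbour Oasl2.

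Oas3 encodes the largest family member, with repeated synthetase units and a preference for long double-stranded RNA. It was measured at 6.38, 6.29 and 6.57 in siRetSat against 5.07, 5.0 and 4.69 in siControl. Again every siRetSat array was above every siControl array. The means were 6.41 ± 0.14 in siRetSat and 4.92 ± 0.20 in siControl (SD, n = 3 each), a log2 difference of 1.49 with a standard error of 0.127 (limma, adjusted p = 0.00119).

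Oas1a encodes a small synthetase with a single catalytic unit. Its own probe set gave log2 intensities of 8.23, 8.21 and 8.57 in siRetSat against 7.13, 7.34 and 7.31 in siControl. The siRetSat array of replicate 3 was the highest, and the groups were apart. The means were 8.34 ± 0.20 in siRetSat and 7.26 ± 0.11 in siControl (SD, n = 3 each), a log2 difference of 1.08 with a standard error of 0.122 (limma, adjusted p = 0.00352). In each of these 4 genes the two-sided exact permutation test gave p = 0.1, the smallest that 3 arrays against 3 allow.

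A further probe set is annotated to both Oas1a and Oas1g, which encodes a close paralog, and so was not part of the gene-level test. Its log2 intensities were 8.74, 8.54 and 8.72 in siRetSat against 7.37, 7.21 and 7.36 in siControl. Tested over all 35556 probe sets, of which 0.543% were higher in siRetSat, it had a log2 difference of 1.35 with a standard error of 0.0985 (limma, adjusted p = 0.00451). In that fit the probe set of Oas1a alone had an adjusted p of 0.0193. Signal of Oas1a and Oas1g cannot be told apart on the shared probe set, and cross-hybridisation between other OAS paralogs was not tested.

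**Figure D2:**
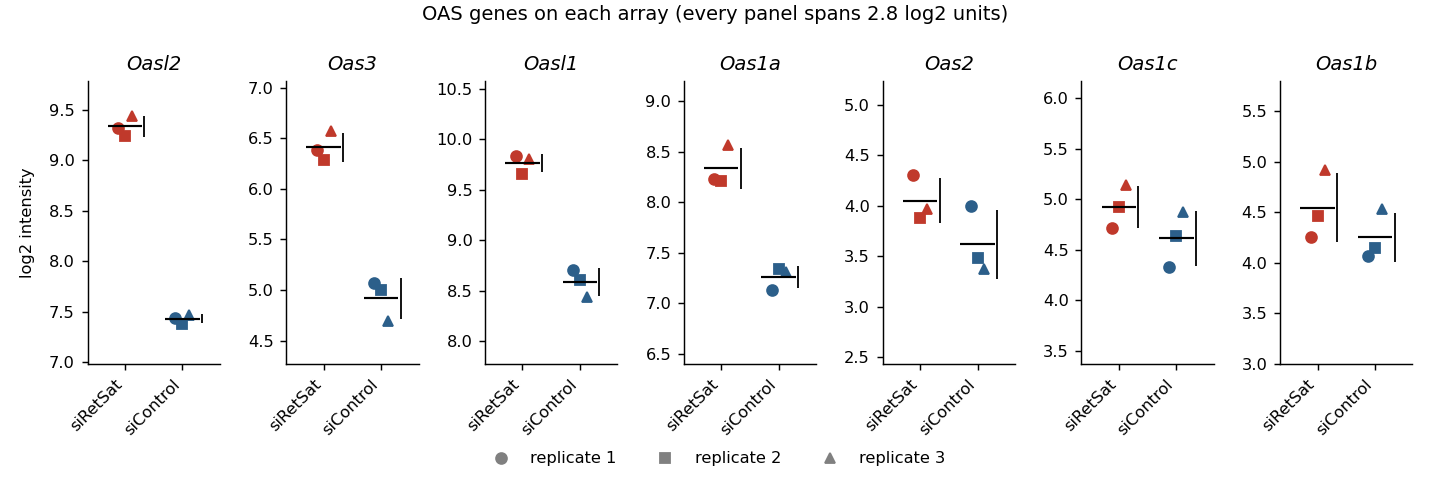
Log2 intensity (y axis) of the 7 OAS genes on each array, with siRetSat in red at the left and siControl in blue at the right of each panel. Symbols give the replicate number, bars mark group means with 1 SD above and below (n = 3), and the groups are apart for Oasl2, Oas3, Oasl1 and Oas1a and overlap for Oas2, Oas1c and Oas1b.

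Oas2, the family member with a doubled synthetase unit, was dim. Its log2 intensities were 4.30, 3.88 and 3.97 in siRetSat against 4.00, 3.48 and 3.37 in siControl. The groups overlapped through siControl 1, the highest of its group. The log2 fold change was 0.43 (95% interval 0.02 to 0.85, adjusted p = 0.317 from limma), and the two-sided exact permutation test gave p = 0.3. The mean of this gene lay at the 30.8 percentile of all genes. Oas2 did pass with array weights (adjusted p = 0.0369 from limma) and without both arrays numbered 1 (adjusted p = 0.0378). It also passed with a block for the replicate number (adjusted p = 0.0261 from limma), although the numbers were not taken as pairs.

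Oas1c and Oas1b, neighbours in the Oas1 cluster, were close to the array medians. Oas1b is the flavivirus resistance gene of mice, and C57BL/6J is among the laboratory strains that carry a truncating allele. Oas1b was measured at 4.25, 4.46 and 4.92 in siRetSat against 4.07, 4.15 and 4.53 in siControl, and the groups overlapped. Its log2 fold change was 0.29 (95% interval -0.14 to 0.72, adjusted p = 0.597 from limma). Oas1c had log2 intensities of 4.72, 4.92 and 5.14 in siRetSat against 4.33, 4.64 and 4.87 in siControl, which overlapped as well. Its log2 fold change was 0.31 (95% interval -0.05 to 0.68, adjusted p = 0.444 from limma). These intervals leave room for no change and for a rise of up to 0.72 on the log2 scale.

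Related OAS genes were set against each other by the within-array difference of their log2 values in 4 pairs. Oasl2 rose by 0.73 more than Oasl1 on the log2 scale. Oas1a exceeded Oas1b by 0.78 and Oas1c by 0.76 in log2 fold change. Oas2 minus its neighbour Oas3 gave -1.06, with Oas2 dim in both groups. With background subtracted all values of Oas2 were at the floor and this difference was -1.67, so its size is not settled. In all 4 pairs the siRetSat differences lay on 1 side of all siControl differences. Except for Oasl2 and Oasl1, each pair set a gene that passed against one that did not, so this was likely beforehand. The share of all gene pairs that lie apart in this way was not counted. Whether low signal lessened the changes of Oas1b and Oas1c was not tested. The two-sided exact permutation test gave p = 0.1 for each, and 0.1 after Benjamini-Hochberg adjustment over the 4 pairs, the smallest value this design can reach.

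The remaining OAS genes of the Oas1 cluster gave low signal in both groups. Oas1d, Oas1e, Oas1f and Oas1h had mean log2 intensities of 3.53, 2.56, 3.48 and 2.79 in siRetSat against 3.53, 2.61, 3.46 and 2.76 in siControl. None of these 4 passed the test, and their log2 fold changes ran from -0.05 for Oas1e to 0.03 for Oas1h. All 4 were below the 40th percentile of gene means, at which a change could be missed. Along the second group of OAS genes, Oas3 and Oas1a rose whereas the genes on either side of them with a probe set of their own did not pass.

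**Figure D3:**
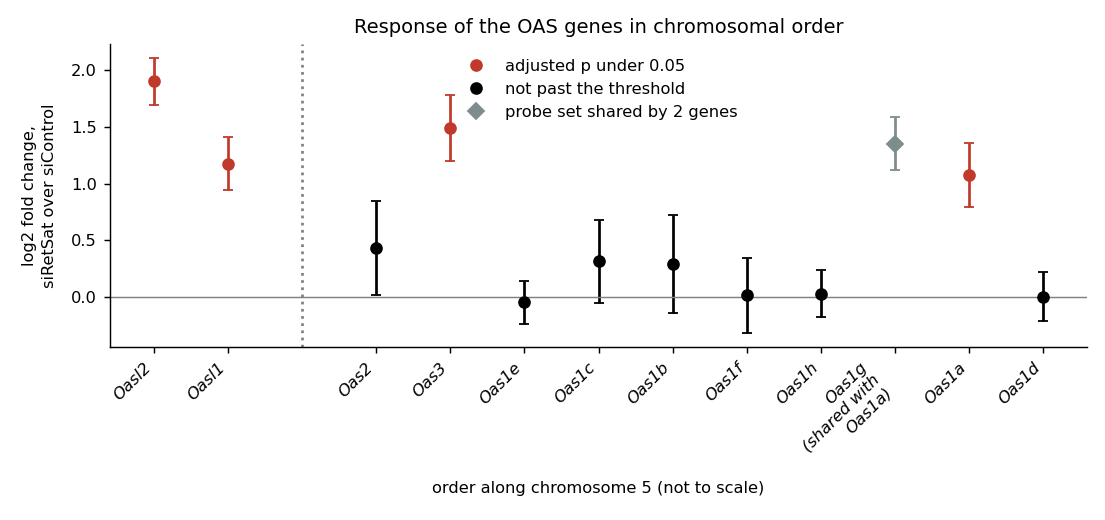
Log2 fold change of siRetSat over siControl (y axis) for OAS genes in their order along chromosome 5 (x axis, not to scale), with 95% intervals from limma (3 arrays per group). Red points passed an adjusted p of 0.05 over all genes, from 1.08 for Oas1a to 1.90 for Oasl2, and the grey diamond at 1.35 is the probe set shared by Oas1a and Oas1g.

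Genes of enzymes and partners of the 2-5A pathway did not pass the test. Of 4 listed partners 3 were measured. Abce1, an ATPase needed for ribosome recycling, had a log2 difference of -0.15 (limma, adjusted p = 0.592). Pde12, a mitochondrial phosphodiesterase that degrades 2-5A, had one of -0.17 (adjusted p = 0.615), and Akap7, whose product can also degrade it, one of 0.26 (adjusted p = 0.682). The median of these 3 was -0.15, against 0.00 over all genes.

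Genes of other proteins that sense double-stranded or unusual RNA rose for 6 of 10 listed and fell for none. Over all genes 1.91% were higher and 1.66% lower. The median log2 fold change of the 10 was 0.585, against 0.00 over all genes. Zbp1, a sensor of Z-form nucleic acids, had a log2 fold change of 2.01, followed by Tlr3, the endosomal RNA receptor, at 1.26. The cytosolic RNA helicases Dhx58 (LGP2), Ddx58 (RIG-I) and Ifih1 (MDA5) rose by 1.07, 1.00 and 0.72. Adar, which edits double-stranded RNA and thereby limits OAS activation, rose by 0.45. Eif2ak2 (PKR), a classical antiviral kinase, had a log2 difference of 0.08 (limma, adjusted p = 0.923). The adaptors Mavs and Ticam1 and the PKR activator Prkra ran from -0.09 to 0.09 and did not pass. Zbp1, Tlr3, Dhx58 and Ddx58 passed whichever of the 6 arrays was omitted, whereas Ifih1 passed in 2 of these 6 refits and Adar in 1. The rises of Ifih1 and Adar were lost without siControl 2, siControl 3, siRetSat 2 or siRetSat 3, and that of Adar also without siControl 1.

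The DNA sensor Cgas, whose fold resembles that of OAS enzymes, and its adaptor Sting1 were dim in both groups, at mean log2 intensities of 2.82 and 3.62 in siRetSat against 2.81 and 3.67 in siControl. Neither passed the test.

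Among interferon transcription factors 3 of 7 measured genes rose and none fell, beside 1.91% higher and 1.66% lower over all genes. The median log2 fold change of the 7 was 0.25, against 0.00 over all genes. Irf7, the amplifier of the type I interferon response, had log2 intensities of 10.21, 10.08 and 10.23 in siRetSat against 9.21, 9.20 and 9.19 in siControl. Its log2 fold change was 0.97 with a standard error of 0.0846 (limma, adjusted p = 0.00128), and no omission of 1 array ended this call. Irf5 rose by 0.67 and Stat2, a subunit of ISGF3, by 0.43. Irf5 was lost without siControl 2, siControl 3, siRetSat 2 or siRetSat 3, and Stat2 without any single array, so that the count fell to between 1 and 2. Irf9, the DNA-binding subunit of ISGF3, had a log2 difference of -0.11 (limma, adjusted p = 0.656).

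Interferon ligands, receptors and kinases did not pass the test. Of 16 listed ligands 13 were measured, of which 11 were below the 40th percentile of gene means. Ifnb1 had log2 intensities of 3.74, 3.63 and 3.51 in siRetSat against 3.81, 3.66 and 3.57 in siControl. Those of the type III ligand Ifnl2 were brighter, at 8.13, 7.64 and 7.19 in siRetSat against 7.80, 7.53 and 6.97 in siControl. The groups overlapped for both ligands, and Ifnl2 had a log2 difference of 0.22 (limma, adjusted p = 0.850). For Ifna5 all siRetSat values exceeded all siControl values, as for 9.33% of all genes. Its log2 difference of 0.13 did not pass (limma, adjusted p = 0.623). RNA was taken at 1 time only, so an earlier rise of a ligand could be missed. Of 9 receptors and kinases, Il10rb, a subunit of the type III receptor, had the lowest log2 fold change, -0.52 (adjusted p = 0.0749 from limma). Ifnar1, a subunit of the type I receptor, had one of -0.31 (adjusted p = 0.124 from limma). For both, all siRetSat values were below all siControl values, and the share of all genes apart in this direction was not counted. The feedback gene Usp18, which damps signalling at the type I receptor, was at 10.91, 10.88 and 10.93 in siRetSat against 10.56, 10.51 and 10.58 in siControl. The groups were apart, but the log2 fold change of 0.36 did not pass (adjusted p = 0.0540 from limma). The other feedback genes measured, Socs1 and Socs3, had log2 fold changes of 0.08 and -0.24 and did not pass. Isg15 was listed with them and was not analysed.

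**Figure D4:**
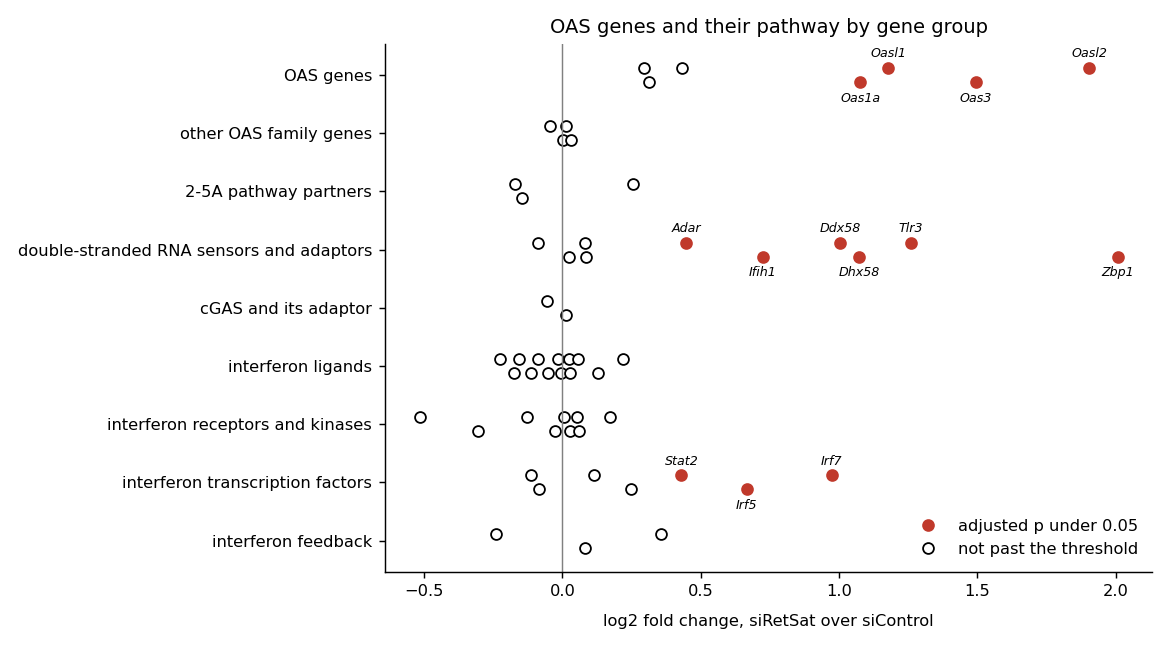
Each point is 1 gene, placed by log2 fold change, siRetSat over siControl (x axis), and by gene group (y axis), from 3 arrays per group. Filled red points passed an adjusted p of 0.05 from limma over all genes, and open points did not. Those that passed were 4 of 7 OAS genes, 6 of 10 RNA sensors and adaptors and 3 of 7 transcription factors. Over all genes 1.91% were higher.

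Immune cells of the liver also express OAS genes, so markers of other cell types were measured beside them. Of 14 macrophage markers 1 was higher and none lower in siRetSat, and of all genes 1.91% were higher and 1.66% lower. The mean log2 intensity of the 14 markers was 4.61 to 4.74 in siRetSat and 4.54 to 4.62 in siControl. Of the 14, 10 lay below the 40th percentile of gene means. The Kupffer cell markers Clec4f, Timd4, Vsig4 and Marco had log2 fold changes of 0.24, -0.05, -0.06 and -0.03, and none passed. The marker that rose was Cd14, at 0.59. Cd68, the brightest marker of the list, was at 11.54, 11.49 and 11.59 in siRetSat against 11.15, 11.24 and 11.03 in siControl. The groups were apart, and the log2 fold change of 0.40 did not pass (adjusted p = 0.0563 from limma). Lymphocyte and NK cell markers, of which 9 were measured, had none that passed and lay at means of 3.12 to 3.51 in siRetSat and 3.16 to 3.40 in siControl. Of 7 dendritic cell markers 1 rose, Bst2 at 0.60, which is itself an interferon-induced gene. None of 7 endothelial and 7 stellate cell markers passed, and 1 of 4 cholangiocyte markers rose, Sox9 at 0.45. When each of the 6 arrays was omitted in turn, Cd14 and Bst2 passed in 2 refits and Sox9 in 1. Among 8 hepatocyte markers none rose and 2 fell, Tat by 0.72 and Cps1 by 0.82, which passed in 1 and 2 of these refits. The mean log2 intensity of the 8 was 9.094 to 9.139 in siRetSat and 9.305 to 9.519 in siControl. Apob, Asgr1 and Ttr had log2 fold changes of -0.36, -0.40 and -0.10. Those of Alb, Apoa1 and Hnf4a were 0.07, 0.11 and 0.10, and none of these other markers passed. In such bulk RNA a change in the number of cells of a type and a change of RNA per cell cannot be told apart, and the part of other cells in the OAS rises was not tested.

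Genes most like the rising OAS genes were sought by the root mean square difference of their values on the 6 arrays, each value taken relative to the siControl mean of its gene. Zbp1 and Gbp7, a guanylate-binding protein, were nearest to Oasl2, at 0.0836 and 0.0921 log2 units. The chemokine gene Ccl5 and Lhfp were nearest to Oas3, at 0.109 and 0.123. Trim30d and the retinol dehydrogenase family gene Dhrs9 were nearest to Oas1a, at 0.0512 and 0.0782. Urad and Cpt1c were nearest to Oasl1, at 0.0624 and 0.0862. All 8 passed the test, with log2 fold changes between 1.10 for Trim30d and 2.01 for Zbp1, and likeness over 6 arrays in 2 groups mainly reflects a similar size of change.

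All 4 rises still passed when any 1 of the 6 arrays was omitted. The log2 fold change then ran from 1.85 to 1.95 for Oasl2, from 1.38 to 1.57 for Oas3, from 1.10 to 1.24 for Oasl1 and from 0.96 to 1.14 for Oas1a. Without both arrays numbered 2, Oasl2 passed (adjusted p = 0.0318 from limma) and Oas3, Oasl1 and Oas1a did not, at log2 fold changes that were not smaller. With the methods' t-test after Benjamini-Hochberg adjustment Oas1a did not pass (adjusted p = 0.0695). At the threshold of the methods, which is an unadjusted p under 0.05 with a minimum fold change, all 4 passed, as did 3.60% of all genes in the same direction.

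**Figure D5:**
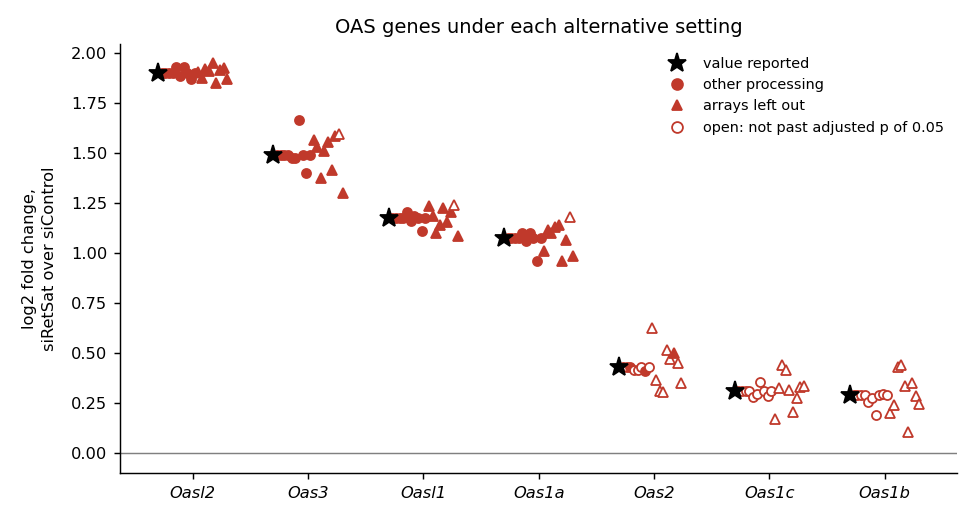
Log2 fold change of siRetSat over siControl (y axis) for each of the 7 OAS genes (x axis) as reported (star), under other processing (circles) and with arrays left out (triangles). Filled circles and triangles passed an adjusted p of 0.05 and open ones did not, and for Oasl2 all values lie between 1.85 and 1.95.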

How the data were processed

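The authors deposited log2 intensities per probe set for the 6 arrays. RMA (background correction, quantile normalization, probe summary) and Partek 6.6 are named in the submitters' processing notes, and filters were not stated. Quantile normalization forces like distributions on the arrays, and probe sets near background understate changes.

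GEO's platform annotation gave 1 gene symbol to 21789 of 35556 probe sets, several to 1621 and none to 12146. RefSeq's GRCm38.p6 table matched 21698 by Entrez identifier, and their symbols were brought up to date. The comparison, siRetSat minus siControl, was fitted without covariates in limma 3.58.1 under R 4.3.3 by lmFit and eBayes, with Benjamini-Hochberg adjustment over 19938 genes. The script was tested on simulated data. Exact tests used SciPy 1.17.1, and plots matplotlib 3.10.9.

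The OAS genes and the 15 other gene lists were chosen with earlier results of these data known. The rule for naming genes took the 7 OAS genes, Retsat, the measured genes of the pathway lists and, for each OAS gene with a log2 fold change above 1 at an adjusted p under 0.05, the 2 nearest other genes. Markers were named from their lists. Alternatives concerned the test (the methods' t-test with Benjamini-Hochberg adjustment and at the methods' own threshold, a variance trend, array weights, a block for the replicate number), the values (a second quantile normalization, median centring, the 5th percentile subtracted and values floored at 16), the genes (a filter at the 40th percentile, averaged probe sets, all probe sets) and the arrays (omission of each, or of both with 1 number). A comparison of protein sequences was planned and not run.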

Additional observations from a re-analysis of the deposited data

How the results depend on the processing

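The 7 OAS genes kept their direction under each of the 19 alternative settings that gave a value, and Oas1b and Oas1c passed under none. Oas2 gave no value with dim genes left out or with background subtracted, where all its values were at the floor. The 710 genes called over the whole table became 196 with the methods' t-test after Benjamini-Hochberg adjustment, and 1425 at the methods' own threshold of an unadjusted p with a minimum fold change, an alternative chosen after seeing the data. They were 1078 with a variance trend, 342 with arrays centred on their median, 445 with background subtracted, 2905 with array weights and 329 with all probe sets tested. They ranged from 207 to 646 with 1 array left out. Omitting siControl 2 gave 207, siControl 3 gave 294, siRetSat 2 gave 226 and siRetSat 3 gave 317. Omitting both arrays with number 1 gave 822, both with number 2 left 15, and both with number 3 left 111. Without both arrays numbered 2, 1 of the 4 OAS genes still passed, and Oas1a (1.18, adjusted p = 0.123 from limma), Oas3 (1.60, adjusted p = 0.0830) and Oasl1 (1.24, adjusted p = 0.0917) did not. With the adjusted methods' t-test Oas1a, at 1.08, had an adjusted p of 0.0695. Over all its alternatives the adjusted p of Oas1a ran from 0.000268 to 0.123. Oas2 passed with array weights (0.41, adjusted p = 0.0369) and without both arrays numbered 1 (0.50, adjusted p = 0.0378), and its adjusted p ran from 0.0261 to 0.885. The causes of these changes were not tested.

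Same-numbered arrays correlated at 0.547, 0.0398 and 0.541 in their deviations from the group means. Differently numbered arrays ran from -0.567 to 0.247, below numbers 1 and 3 but not all below number 2. The numbers were not taken as pairs, and an effect shared by arrays of 1 number was not tested. With the replicate block 1541 genes were called, among them Oas2 at 0.43 (adjusted p = 0.0261 from limma). The block changed the call of no other OAS gene, although the adjusted p was then 0.0519 for Oas1c and 0.0760 for Oas1b (limma).

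RNA sensors called higher fell to 3 with the adjusted methods' t-test and 1 without both arrays numbered 2, and ranged from 4 to 6 with 1 array left out. Transcription factors called higher were 1 with the adjusted methods' t-test, with arrays centred on their median, with background subtracted, with all probe sets tested and without both arrays numbered 3, 0 without both numbered 2, and from 1 to 2 with 1 array left out. The 4 differences between OAS genes kept their sign in each alternative run for them, and Oas2 minus Oas3 reached -1.67 with background subtracted, where Oas2 was at the floor. Slide and scan date were not used here. The brightness of Oas1b, Oas1c and Oas2 limits what can be said of them.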
